A study of Mus musculus with 74 samples.

Results

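Mouse embryonic stem (ES) cells carrying a CRISPR activator aimed at the Nanog promoter, but left uninduced, were compared with and without leukaemia inhibitory factor (LIF). The members were the 6 RNA-seq libraries of Nanog SunTag cells cultured without doxycycline (Dox), found by guide RNA, LIF and Dox in the sample labels, out of 35 RNA-seq libraries in the tables and 74 samples in the series. 3 libraries were of cells kept in LIF at 10 ng/mL and 3 of cells deprived of it for 3 days. SunTag is a Dox-inducible activator in which a catalytically dead Cas9 fused to a GCN4 peptide array recruits an antibody fragment fused to VP64. All 6 libraries carried this transgene and the Nanog guide RNA, so no library of cells without them enters the comparison. The cells were clones C1 and C2, each 1 clone derived from E14Tg2a, a male feeder-independent ES line, and were grown on gelatine in medium with serum. For a second line, Nanog/Otx2 SunTag cells were made from the same clones and carry guides against Nanog and Otx2. 7 of their libraries without Dox, 3 with LIF and 4 without, are used at the end. No source used here says whether libraries of 1 clone came from separate thawings or passages, so p-values measure the spread between these cultures. The libraries with LIF were C1-1, C2-1 and C2-2, those without LIF were C1-1, C1-2 and C2-1, and values are given below in this order. The guide matches the site below, where the capitals mark the PAM.
Nanog guide site: cttcccactagagatcgccaGGG

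The guide site lies at mm9 chr6:122657269-122657288 on the plus strand, 238 bases upstream of the annotated start of Nanog, and is shown because every library compared here carries the guide against it.

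LIF binds a receptor made of the products of Lifr and Il6st, which activates JAK kinases and through them the transcription factor Stat3. In ES cells Stat3 sustains factors of the naive state, the state of the preimplantation epiblast, whereas FGF signalling through ERK drives cells out of it. Cells that leave the naive state pass through a formative and then a primed state, like the epiblast around implantation, before they enter the germ layers.

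Marker genes were looked up for the cell type, which leaves the LIF, Dox, clone and guide labels unchecked. Pou5f1 and Sox2, which mark undifferentiated ES cells, were present in all 6 libraries at 3953 normalised counts or more, and Ptprc, a marker of blood cells, had at most 1.25. The total of estimated counts ranged from 10937367 to 35412131 per library, with the fewest in C1-1 with LIF. This library stood apart from the other 10 Nanog SunTag libraries in base composition: relative to the mean of the 11 libraries its counts deviated by 0.33 (log2) at a GC content of 42.0% and by -0.54 at 58.3%, where C2-1 and C2-2 with LIF deviated by -0.27 and -0.24 and by 0.32 and 0.17. The libraries also differed by transcript length. Transcripts of 6344 bases, against those of 1226 bases, deviated by -0.09 against -0.02 in C1-1 with LIF, by -0.30 against 0.29 in C2-1 and by -0.34 against 0.32 in C2-2, and in the 3 libraries without LIF by 0.29 against -0.17, 0.33 against -0.25 and 0.21 against -0.10. This trend separated the groups without overlap, so it moved with every result on genes grouped by length, and whether it arose in the cells or in the libraries was not tested. In the deposited column names every Nanog SunTag library with LIF begins with HV_G and every one without LIF with HV_H. What these letters stand for is not stated, so a difference that goes with them cannot be told apart from LIF. Names of the Nanog/Otx2 libraries share a prefix with and without LIF. Adjusted p-values below come from edgeR (quasi-likelihood F-test, Benjamini-Hochberg over all genes tested), ± in a log2 fold change is its standard error, and normalised counts are the deposited counts divided by a size factor. Where a count of called genes in a list changed by over 1.5 times and by at least 2 genes with the length trend removed from each library, with the clone as a block or with 1 of the 6 libraries left out, the changed count is given beside it.

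Between the libraries with and without LIF, 6481 of 15624 genes tested (41.5%) differed in level at an adjusted p under 0.05. Of these, 3151 rose (20.2% of the genes tested) and 3330 fell (21.3%), which are the shares against which the gene groups below are read. The median log2 fold change of all genes tested was -0.05, that of the genes that rose was 1.27 and that of the genes that fell was -1.33. Among the genes that rose, 1963 did so by over 2-fold, 381 by over 8-fold and 182 by over 16-fold, and among those that fell the counts were 2154, 452 and 209. The 2 groups of libraries did not overlap for 98.2% of the genes that rose and 92.6% of those that fell, where 26.2% of all genes tested were without overlap upwards and 25.6% downwards. With a test against a 2-fold change, 977 genes were called higher (6.25%) and 1007 lower (6.45%). The settings used for the lists below also moved the calls over all genes. Without C1-1 with LIF 4140 of 15785 rose and 3813 fell, and without any other library 4894 to 5693 were called in all. With the clone as a block 3569 rose and 3670 fell, and with the length trend removed 2529 of 14177 rose and 2818 fell. Changed list counts are to be read against these.

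The change moved a sizeable part of the RNA. The genes that rose took 12.4% ± 0.901 of the counts with LIF and 23.7% ± 0.859 without (SD, n = 3 each), and those that fell took 24.5% ± 0.441 and 13.7% ± 0.293. These shares were computed on the libraries that also made the calls, so they describe the size of the change and add no support to it.

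**Figure D1:**
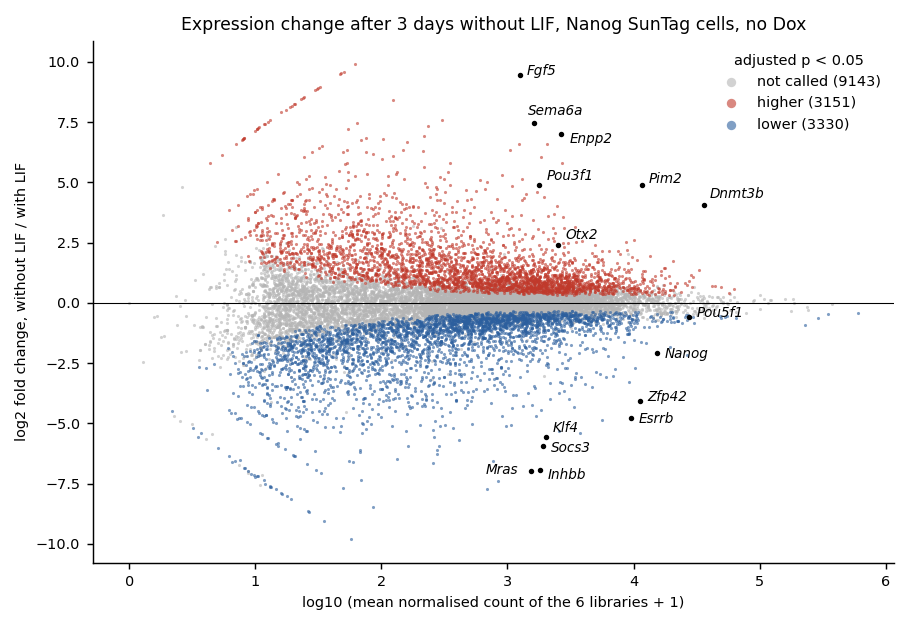
Each point is a gene tested, with the log10 mean normalised count of the 6 libraries on the horizontal axis and the log2 fold change (without LIF over with LIF) on the vertical axis. The 3151 genes called higher and the 3330 called lower spread over the whole range of expression, with Fgf5 at 9.43, Dnmt3b at 4.07 and Mras at -6.97. Fitted values of genes with 3 counts or fewer in every library of 1 group, which form the outer arcs, depend on the prior count.

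The receptor and its pathway were among the genes that changed. Of 11 genes of the LIF receptor and JAK-STAT machinery tested, 5 fell and 1 rose. Lifr, the LIF-binding chain of the receptor, stood at 4638, 3009 and 2980.1 normalised counts with LIF and 489, 800.1 and 568 without (log2 fold change -2.54 ± 0.23, adjusted p = 1.1e-05). Stat3 itself stood at 2386, 2658 and 2581 with LIF and 471, 489.9 and 473 without (log2 fold change -2.43 ± 0.13, adjusted p = 6.8e-07). For both genes every library without LIF lay far below every library with it. Il6st, the signalling chain gp130, fell less (-0.75 ± 0.18), as did Stat5a (-1.87 ± 0.29), whereas the kinase gene Jak1 did not pass the test (0.22 ± 0.23, and 0.58 and called without C1-1 with LIF). Ptpn11, encoding the phosphatase Shp2 that links gp130 to ERK, was the gene that rose, from 2212, 1891 and 1745 to 4390.3, 4469.9 and 3462 normalised counts (log2 fold change 1.06 ± 0.16, adjusted p = 3.5e-04).

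Of 17 STAT3 targets and SOCS feedback genes, 9 fell and 1 rose, and the median log2 fold change was -1.36. Socs3, which encodes the feedback inhibitor of the receptor (mm9 chr11:117827393-117831361, minus strand), stood at 2356, 4719 and 4197 normalised counts with LIF and 57.0, 81.4 and 49.2 without (log2 fold change -5.93 ± 0.34, adjusted p = 8.1e-07). Bcl3, a nuclear IkappaB protein, stood at 289, 1017 and 849 with LIF and 24.4, 15.5 and 18.4 without (log2 fold change -5.19 ± 0.47, adjusted p = 1.2e-05). Both were between 10 and 100 normalised counts in all 3 libraries without LIF, well apart from the libraries with LIF. Pim1 and Pim3, encoding serine/threonine kinases, fell by 1.36 ± 0.18 and 1.96 ± 0.16 on the log2 scale, and the AP-1 subunit gene Junb fell by 1.39 ± 0.35. The third kinase of this family moved the other way: Pim2 stood at 822, 702 and 748 with LIF and 21245, 24113 and 22922 without (log2 fold change 4.89 ± 0.19, adjusted p = 1.4e-07). Cish and Mcl1 did not pass the test (0.03 and -0.05 on the log2 scale). Socs2, another feedback gene (0.38), was called higher without C1-1 with LIF (0.57), and Myc (0.93) was called higher with the clone as a block (1.20) and without C1-1 without LIF (1.11).

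The promoters of these genes were searched for the STAT letters TTCCNGGAA, on both strands, in windows from 250 bases before to 50 after the RefSeq start in GRCm38.p6. Of the 10225 tested genes with such a window, 150 (1.47%) held the motif, against 36 of 2119 genes that fell (1.70%), 31 of 2193 that rose (1.41%) and 7 of 267 that fell by over 8-fold (2.62%). Of the 14 STAT3 target list genes with a window, only Cish held it, and Socs2, Myc and Egr1 had no window to search. The looser letters TTCNNNGAA, which include the first motif, were found in 8.07% of tested genes, 8.26% of those that fell and 7.39% of those that rose. The windows below are shown because they hold these letters, in capitals, beside genes of this pathway: TTCCNGGAA in Icam1, Bcl6 and Cish, and in Socs3 only the looser TTCNNNGAA. Of these, Icam1 and Bcl6, genes long known to respond to STAT factors, were chosen after their values were seen. The Cish window also holds a match of the looser letters that is left in lower case. Bcl6 has another TTCCNGGAA match in its promoter, outside the stretch shown.
Icam1, chr9:21015873-21015931, plus strand: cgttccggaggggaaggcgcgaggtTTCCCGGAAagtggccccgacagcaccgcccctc
Bcl6, chr16:23981418-23981476, minus strand: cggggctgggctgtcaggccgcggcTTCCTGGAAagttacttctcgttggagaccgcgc
Cish, chr9:107296634-107296692, plus strand: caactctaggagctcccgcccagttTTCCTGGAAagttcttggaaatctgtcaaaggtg
Socs3, chr11:117969487-117969545, minus strand: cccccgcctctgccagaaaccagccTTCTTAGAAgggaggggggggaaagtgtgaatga

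Icam1, which encodes an adhesion molecule, fell (log2 fold change -3.43 ± 0.22, adjusted p = 1.5e-06), as did Bcl6, which encodes a transcriptional repressor (log2 fold change -2.90 ± 0.29, adjusted p = 2.3e-05). Cish, with the same letters at its start, stood at 69.6, 114 and 119 with LIF and 97.7, 119 and 98.3 without and its groups overlapped (0.03 ± 0.29). A match is a run of letters and not a site shown to be bound.

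The naive pluripotency factors fell almost as a block. Of 17 tested, 16 fell and 0 rose, with a median log2 fold change of -3.59. Esrrb, an orphan nuclear receptor, stood at 14784, 19406 and 21159 normalised counts with LIF and 533, 852 and 644 without (log2 fold change -4.79 ± 0.21, adjusted p = 1.9e-07). Klf4, a Krüppel-like factor downstream of Stat3, stood at 3449, 4217 and 4234 with LIF and 67.6, 87.9 and 102 without (log2 fold change -5.56 ± 0.22, adjusted p = 1.4e-07). Zfp42 (Rex1), the usual reporter gene of the naive state, stood at 23743, 19448 and 20455 with LIF and 935, 1594 and 1359.6 without (log2 fold change -4.06 ± 0.22, adjusted p = 6.8e-07). The libraries with and without LIF were separated by over 10-fold for each of the 3. Tfcp2l1, Tbx3, Tcl1, Klf2 and Prdm14 fell by a similar amount, with log2 fold changes of -4.85, -5.31, -5.12, -4.68 and -4.38, and the smallest fall was that of Mybl2 (-1.64 ± 0.22).

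Nanog, the gene under the uninduced guide, fell less than most of this list and varied more without LIF. It stood at 29487, 23345 and 21940.5 normalised counts with LIF and 7032, 8484 and 2234 without (log2 fold change -2.10 ± 0.37, adjusted p = 0.0010), and the lowest library without LIF was that of clone C2. Dppa3 was the member that did not pass the test: it stood at 150.0, 20.1 and 49.9 with LIF and 87.1, 90.5 and 47.9 without and its groups overlapped.

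The general pluripotency factors split. Of 18 tested, 9 fell (6 when C1-1 with LIF was left out, 4 without C1-1 without LIF, and 6 of 17 with the length trend removed), 1 rose (3 with the clone as a block) and the median was -0.35. Pou5f1 (Oct4), the central factor of all pluripotent states, stood at 22107, 38045 and 37806 with LIF and 21177, 19118 and 25893 without (log2 fold change -0.58 ± 0.20, adjusted p = 0.040), and C1-1 with LIF overlapped the libraries without LIF. The call on Pou5f1 was lost with the clone as a block (-0.49), with the length trend removed (-0.23), and without C2-1 or C2-2 with LIF (-0.46 each) or C1-1 or C1-2 without LIF (-0.55 and -0.47). Sox2, its partner, stood at 13782, 11531 and 10742 with LIF and 3953, 5991 and 6974 without (log2 fold change -1.11 ± 0.19, adjusted p = 9.4e-04), without overlap. Larger falls were those of Dppa5a (-2.18 ± 0.27), of Tdh (-2.66 ± 0.24), the threonine dehydrogenase gene that has 2 identifiers in the table, and of Tdgf1 (-1.85 ± 0.21), the Nodal co-receptor. Lin28a, an RNA-binding protein that blocks let-7 maturation, was the gene that rose, from 9401, 6569 and 7551 to 14631, 18519.7 and 14659 (log2 fold change 1.00 ± 0.20, adjusted p = 0.0023). Sall4, Sall1, Zfp281, L1td1 and Zscan10 did not pass the test, with log2 fold changes between -0.23 and 0.53.

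Formative and primed epiblast genes rose together. Of 19 tested, 16 rose, 2 fell (0 without C1-2 without LIF) and the median log2 fold change was 2.22. Fgf5, the standard marker of the postimplantation epiblast (mm9 chr5:98683203-98706049, plus strand), had the largest fitted rise among genes with over 3 counts in at least 1 library with LIF: it stood at 13.4, 0 and 1.25 normalised counts with LIF and 2557, 2528 and 2508 without (log2 fold change 9.43 ± 0.75, adjusted p = 5.1e-06). Pou3f1 (Oct6) stood at 126, 116 and 104 with LIF and 3048, 3192 and 4101 without (log2 fold change 4.89 ± 0.27, adjusted p = 6.8e-07), and is listed under 2 identifiers between which its reads may be split. Dnmt3b, a de novo DNA methyltransferase, stood at 6129, 3039 and 2802 with LIF and 69072, 61951 and 73045 without (log2 fold change 4.07 ± 0.30, adjusted p = 3.4e-06). In each case every library without LIF lay above every library with LIF. With so few counts with LIF, the fitted rise of Fgf5 was 11.58 without C1-1 with LIF and 8.83 or 8.84 without C2-1 or C2-2.

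Otx2, the homeobox factor that accompanies the exit from naive pluripotency, stood at 908, 704 and 740.3 with LIF and 4254, 3534 and 4927 without (log2 fold change 2.42 ± 0.23, adjusted p = 1.4e-05), a smaller rise than those of Sall2 (4.58 ± 0.31), Zic2 (4.00 ± 0.28), Sox3 (3.75 ± 0.34) and Cldn6 (3.54 ± 0.39) by the fitted values, which were not tested against each other. Dnmt3a, Lef1, Grhl2, Lin28b and Sox4 rose by between 1.45 and 2.22 on the log2 scale. The members that fell were Tcf15 (-1.02 ± 0.36) and Nodal (-0.78 ± 0.21). The call on Tcf15 was lost without C2-1 or C2-2 with LIF (-0.91 and -0.73) or C1-1 or C1-2 without LIF (-0.74 and -1.01), and that on Nodal without C1-2 without LIF (-0.63). Foxd3 did not pass the test (0.54 ± 0.31) and was called higher with the clone as a block (0.79).

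**Figure D2:**
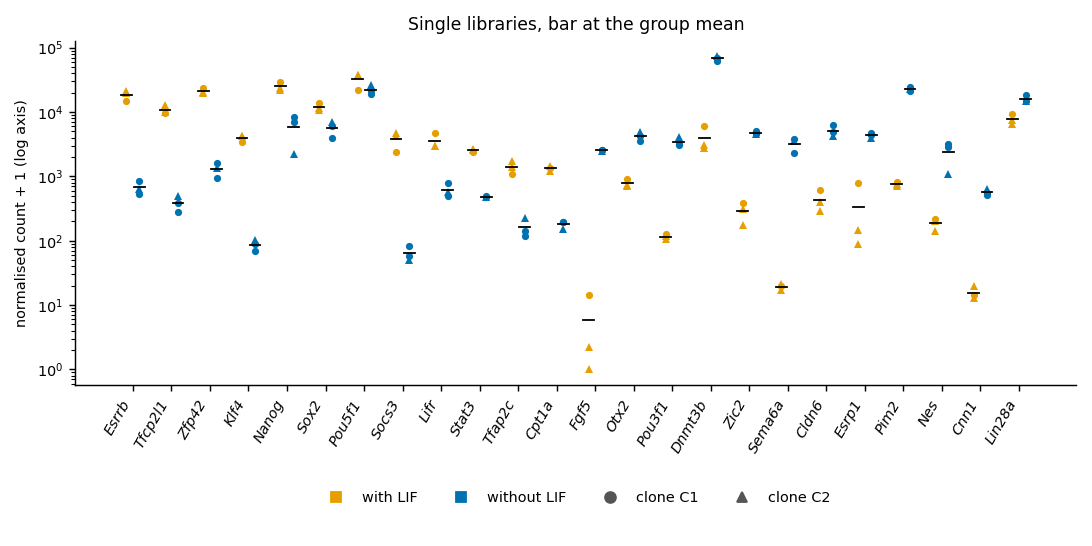
Normalised counts plus 1 of 24 genes, on a log axis, for each of the 3 libraries with LIF (orange) and the 3 without (blue), with circles for clone C1, triangles for clone C2 and a bar at the group mean. Naive factors, Socs3, Lifr and Stat3 on the left lie lower without LIF, and formative and epithelial genes on the right lie higher, while the libraries of Pou5f1 overlap.

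FGF ligands and receptors changed in both directions. Of 11 tested, 6 rose and 4 fell (2 without C1-1 without LIF). Beside Fgf5, the ligand gene Fgf15 rose (2.09 ± 0.45). Fgf4, the ligand that naive cells secrete, fell from 6724, 4398 and 5019 to 2744, 3934 and 3293 (log2 fold change -0.72 ± 0.22, adjusted p = 0.020), and Fgf17 fell by 2.61 ± 0.62 on the log2 scale. The call on Fgf4 was lost without C1-1 with LIF (-0.49) and without C1-1 or C2-1 without LIF (-0.59 and -0.69). ERK feedback genes were split evenly, with 5 of 16 rising and 5 falling, although 3 fell without C2-2 with LIF and 2 without C1-1 without LIF. Dusp6, Dusp4 and Spry1 rose (log2 fold changes 1.53, 2.38 and 1.35), whereas Spry2 and Etv4 fell (-1.20 and -1.18) and Etv5 did not pass the test (-0.09 ± 0.12).

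Of 21 Wnt targets and modulators, 10 rose and 4 fell, with a median of 0.78. The nuclear factors of the pathway rose: Lef1 stood at 739, 865 and 315 with LIF and 2774, 2735 and 3539 without (log2 fold change 2.22 ± 0.31, adjusted p = 2.0e-04), Tcf7l1 rose by 1.54 ± 0.22 and Tcf7 by 1.09 ± 0.14. The receptor gene Fzd2 rose from 45.5, 73.8 and 52.4 to 598, 483 and 703 (3.35 ± 0.29), while another receptor gene, Fzd5, fell (-2.52 ± 0.27). Wnt3 and Wnt8a, ligand genes of the early streak, had at most 4 counts in each library with LIF and stood at 77.4, 43.9 and 86.0 and at 46.4, 41.4 and 36.9 normalised counts without, and both were called higher. Notum, encoding a secreted Wnt deacylase, fell (-3.82 ± 0.33).

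Nodal and activin genes again moved both ways, with 6 of 15 rising and 5 falling. The feedback genes Lefty1 and Lefty2 did not pass the test (0.85 ± 0.71 and -0.39 ± 0.60), and their libraries overlapped. With the clone as a block Lefty2 was called lower (-0.96). The co-receptor gene Tdgf1 and the convertase gene Pcsk6 fell (log2 fold changes -1.85 and -1.61), and Foxh1, a partner of the Smad proteins, and the receptor gene Acvr2b rose (1.73 and 2.47). Inhbb, which encodes an activin subunit and was outside the list, was among the largest falls: it stood at 2032, 4576 and 4167 with LIF and 4.89, 31.0 and 56.5 without (log2 fold change -6.95 ± 0.67, adjusted p = 1.7e-05, and -6.36 or -7.78 without C1-1 or C2-1 without LIF).

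Bmp4 fell while Id2 and Id3, genes that BMP signalling induces, rose. Bmp4 stood at 506, 722 and 737 with LIF and 119.7, 129 and 98.3 without (log2 fold change -2.52 ± 0.22, adjusted p = 9.4e-06). Id2 stood at 281, 355 and 243 with LIF and 1146, 1494 and 1995 without (log2 fold change 2.38 ± 0.29, adjusted p = 8.2e-05). Neither gene had overlapping groups, and Id3 also rose (2.22 ± 0.43), whereas Id4 did not pass the test (0.67 ± 0.33). Of the 17 BMP and Id genes tested, 6 rose in all and 2 fell, and the receptor genes Bmpr1a and Bmpr2 were among those that rose (1.26 and 2.31).

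Of 14 Notch genes, 7 rose and 3 fell. The ligand genes Dll3 and Jag2 and the receptor gene Notch2 rose by between 1.87 and 2.13 on the log2 scale. The receptor gene Notch4 fell (-3.08 ± 0.43), as did Hes1, a target of the pathway (-1.57 ± 0.25), and Hes6 rose (1.88 ± 0.30). Of 12 retinoic acid genes, 2 rose, among them the binding protein gene Crabp2 (2.10 ± 0.25), and 5 fell, among them Aldh1a2 and Aldh1a3, which encode retinoic acid-synthesising enzymes (-1.98 and -1.17), and Stra8, a gene known for its induction by retinoic acid in germ cells, which went from 316, 997 and 326 to 4.07, 6.46 and 11.1 normalised counts (-6.29 ± 0.76, and -5.53 without C2-1 with LIF). Of 14 YAP and TEAD targets, 8 rose and 1 fell. Ctgf, Cyr61 and Amotl2, the usual readouts, rose by 2.75 ± 0.28, 1.89 ± 0.34 and 1.68 ± 0.18, and Tead4 was the gene that fell (-2.05 ± 0.24).

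Germ layer genes were mostly low and changed in part. Among 10 primitive streak genes tested of 19 with a row, 4 rose and 3 fell. The median log2 fold change was 1.58 here and -0.07 in Nanog/Otx2 SunTag cells, described below. The 3 that fell are not among the genes named next. Eomes stood at 147, 161 and 72.4 normalised counts with LIF and 363, 551 and 360.2 without (log2 fold change 1.74 ± 0.32, adjusted p = 0.0015) and Mixl1 at 16.1, 15.1 and 12.5 with LIF and 54.6, 63.3 and 39.3 without (1.84 ± 0.44). T (brachyury) stood at 16.1, 11.7 and 1.25 with LIF and 41.5, 24.6 and 33.2 without, without overlap, but did not pass the test (log2 fold change 1.91 ± 0.77, adjusted p = 0.067) except without C1-1 with LIF (2.46), and Foxa2, Gsc, Mesp1 and Cer1 did not reach the minimum count. Of 12 neuroectoderm genes tested of 21 with a row, 4 rose and 2 fell. Nes, an intermediate filament of neural progenitors, stood at 217, 203 and 142 with LIF and 2868, 3220.0 and 1069 without (log2 fold change 3.66 ± 0.38, adjusted p = 2.8e-05), and Sox11 and Cdh2 rose as well (3.28 and 3.15). Pax6 stood at 129, 23.5 and 20.0 with LIF and 94.5, 429 and 101 without and its groups overlapped (1.93 ± 0.83, but called higher without C1-1 with LIF, at 3.26, and with the clone as a block, at 1.59), while Tubb3 and Ncam1, genes of neurons, fell (-1.83 and -2.94). Sox1 was not analysed here.

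Of 15 mesoderm and mesenchyme genes tested, 5 rose and 4 fell. These counts depended on single libraries, with 3 rising without C2-1 or C2-2 with LIF or C1-2 without LIF, and 1 or 2 falling with any library other than C1-1 with LIF left out, and 2 fell with the clone as a block. Those with the largest rises encode smooth muscle cytoskeleton: Cnn1 (calponin) stood at 13.4, 11.7 and 18.7 with LIF and 503, 557 and 626 without (log2 fold change 5.20 ± 0.46, adjusted p = 9.7e-06), and Tagln rose by 4.25 ± 0.36. Hand1 did not pass the test (1.42 ± 1.09), and neither did Twist1 (0.93 ± 0.56) except without C1-1 with LIF (1.87). Meox1, a homeobox gene of somites, fell, from 72.3, 18.4 and 36.2 to 2.44, 0 and 0 normalised counts. Extraembryonic endoderm genes went down more often than up, with 9 of 20 falling and 1 rising (6 and 2 without C1-1 with LIF). Without C2-1 with LIF 4 fell, and without C1-1 or C2-1 without LIF 5 and 4. Gata6 stood at 169, 199 and 61.2 with LIF and 22.8, 14.2 and 30.7 without (log2 fold change -2.66 ± 0.57, adjusted p = 0.0032), and Hnf4a also fell (-3.73 ± 0.34). Among 13 trophoblast genes tested, 3 fell, led by Tfap2c (-3.14 ± 0.28), a factor that naive cells share with trophoblast, and 2 rose, and Cdx2 and Elf5 did not reach the minimum count. Of 13 Hox genes tested of 35, 5 fell and 0 rose, and no tested member exceeded 209.4 normalised counts in any of the 6 libraries.

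Markers of cells that do not belong in the culture were not all low. Thy1 stood at 129, 399 and 461 normalised counts with LIF and 305, 196 and 245 without and was not called. Col1a1 stood at 5.36, 36.9 and 38.7 with LIF and 49.7, 29.7 and 32.0 without and was not called either. Of 14 fibroblast and blood genes 7 were tested, 2 rose and 1 fell. The rises were Dcn, at 0 counts in all 3 libraries with LIF and 35.0, 60.8 and 14.8 normalised counts without, and Col1a2, at 8.03, 11.7 and 6.24 with LIF and 26.1, 33.6 and 22.1 without (call lost without C2-2 with LIF or C1-2 without LIF, at 1.40 and 1.48 on the log2 scale), and the fall was Pecam1 (-2.14 ± 0.30), which ES cells themselves express. The summed level of the list was 2563 to 3495 with LIF and 969 to 1514 without. In these bulk libraries a smaller share of cells of a kind and less RNA per cell cannot be told apart.

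Cell junction genes of epithelia rose. Of 24 tested, 16 rose (66.7%), 2 fell and the median log2 fold change was 1.59. Cdh1 (E-cadherin) stood at 10619.8, 8589 and 8607 normalised counts with LIF and 18876, 16503 and 20276 without (log2 fold change 0.98 ± 0.15, adjusted p = 4.6e-04). The tight junction genes Cldn6 and Cldn7 rose by more, Cldn7 standing at 66.9, 33.5 and 32.5 with LIF and 799.6, 703 and 519 without (log2 fold change 3.96 ± 0.36, adjusted p = 1.1e-05), and Epcam and Tjp1 rose by 1.43 and 0.98 on the log2 scale. Krt8 and Krt18, the keratins of simple epithelia, rose by 1.85 ± 0.20 and 2.54 ± 0.27. Esrp1, a splicing regulator of epithelia, rose by 3.70 ± 0.78 (5.21 without C1-1 with LIF) and differed between the clones, as described below. Grhl3, a transcription factor of surface epithelia, fell (-2.45 ± 0.28).

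Mesenchymal genes showed no common direction, with 4 of 17 rising (2 without C1-1 without LIF) and 5 falling. Zeb1, a repressor of Cdh1, stood at 383, 605 and 582 with LIF and 22.8, 34.9 and 35.6 without (log2 fold change -4.10 ± 0.29, adjusted p = 2.8e-06), and Vim and Fn1 fell (-1.58 and -0.97), whereas Cdh2 and Cd44 rose (3.15 and 2.06). Zeb2, Snai1 and Snai2 did not pass the test (0.11, -0.75 and -0.70). Of 26 extracellular matrix genes 13 rose and 7 fell. Nidogen-1 (Nid1), a basement membrane linker, stood at 7123, 5199.6 and 4901 with LIF and 388, 412 and 297 without (log2 fold change -3.99 ± 0.22, adjusted p = 7.3e-07), and the laminin gene Lama1 fell as well (-2.06 ± 0.22), while Vcan, Fbn2 and Lama5 rose (1.73, 2.06 and 1.42). These genes have long transcripts, with a median of 6394 bases, and with the length trend removed 5 were called higher and 9 lower. Without C2-2 with LIF or C1-1 without LIF 7 and 8 were called higher.

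Of 27 axon guidance and neurite genes 15 rose and 5 fell, with a median of 1.08 (10 and 7 with the length trend removed, at a median length of 5907 bases). The number that fell was 3 with the clone as a block and 2 or 3 with any library other than C1-1 with LIF left out. Sema6a, a transmembrane semaphorin, stood at 18.7, 20.1 and 16.2 with LIF and 3769, 2313 and 3576 without (log2 fold change 7.45 ± 0.73, adjusted p = 2.0e-05). The Eph receptor genes moved in opposite directions: Epha1 stood at 115, 48.6 and 59.9 with LIF and 2253, 1523 and 2515 without (log2 fold change 4.84 ± 0.38, adjusted p = 5.1e-06), and Epha4 at 4849, 4804 and 4697 with LIF and 270.3, 315 and 508 without (log2 fold change -3.74 ± 0.45, adjusted p = 8.1e-05). Both were without overlap between the groups. The plexin gene Plxnb1 and the netrin receptor gene Unc5b rose (2.86 and 2.93), and the netrin gene Ntn1 fell (-3.66 ± 0.35).

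**Figure D3:**
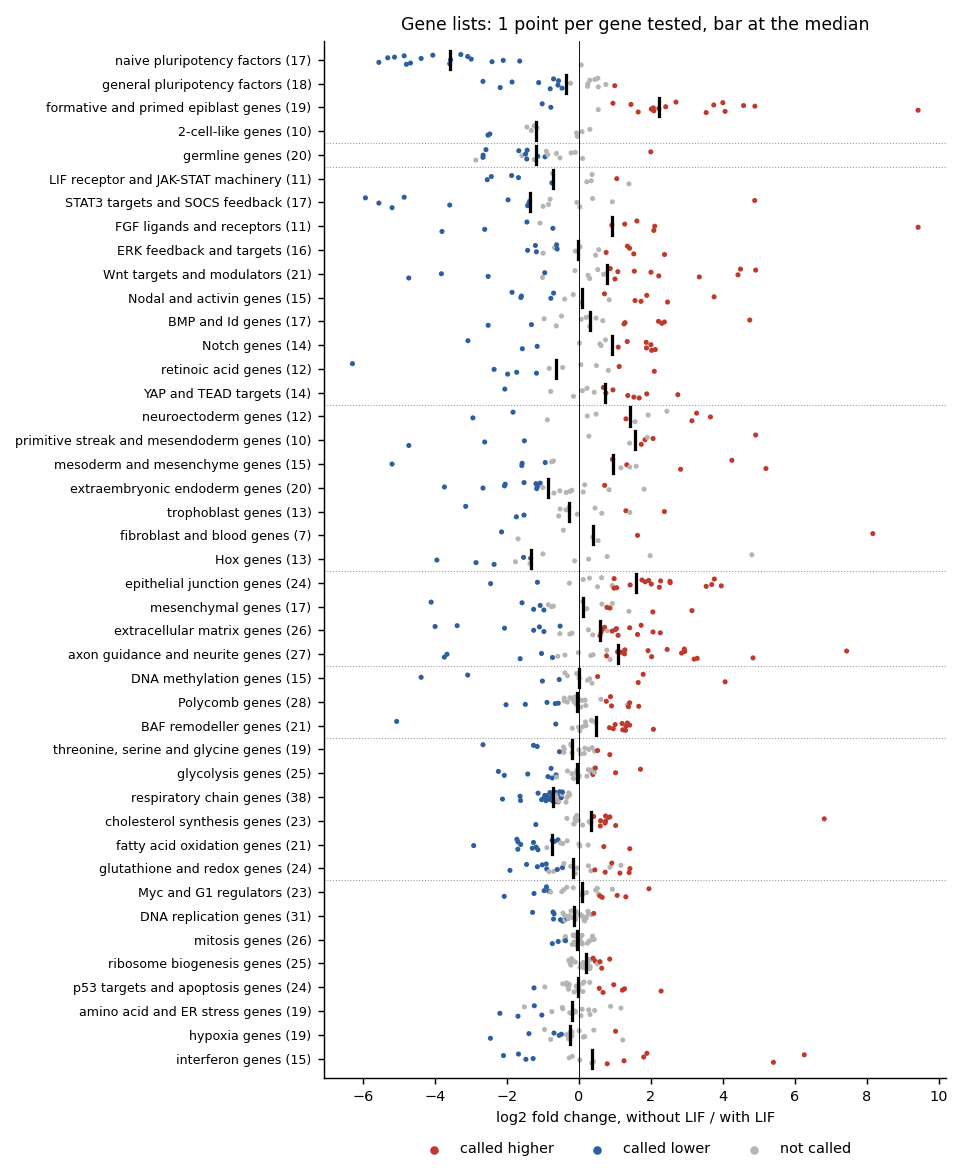
Log2 fold changes (without LIF over with LIF) of the genes tested in each of 43 gene lists, with the number tested in brackets, red for genes called higher, blue for genes called lower, grey for the others and a black bar at the median. The naive factors, with a median of -3.59, the formative genes, at 2.22, and the epithelial junction genes, at 1.59, lie farthest from 0 among lists with over 12 genes tested.

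Chromatin regulators changed gene by gene. Of 15 DNA methylation genes 4 rose and 4 fell: beside Dnmt3a and Dnmt3b, Tet3 rose (1.79 ± 0.23), while Tet2, which oxidises 5-methylcytosine, stood at 8676, 4873 and 4765 with LIF and 600.1, 1091 and 508 without (log2 fold change -3.09 ± 0.33, adjusted p = 4.0e-05) and Dnmt3l, the cofactor of the de novo enzymes, fell by 1.01 ± 0.22 on the log2 scale. Of 28 Polycomb genes 6 rose and 5 fell (3 without C1-1 without LIF). The core subunit gene Eed stood at 12379, 7758 and 8399.7 with LIF and 3144, 3522 and 3703 without (log2 fold change -1.48 ± 0.18, adjusted p = 9.8e-05), and the methyltransferase gene Ezh2 fell by 0.65 ± 0.16 on the log2 scale. The third core subunit, Suz12, did not pass the test (-0.08 ± 0.26) and was called higher without C1-1 with LIF (log2 fold change 0.42). Kdm2b and Cbx2, of PRC1, rose (1.41 and 1.38). Of 21 BAF remodeller genes 10 rose and 2 fell (6 and 1 with the length trend removed). The subunit genes Arid1a and Smarcc1 rose by 1.30 ± 0.12 and 1.21 ± 0.21, and Smarcd3 fell from 190.1, 771 and 905 to 19.5, 15.5 and 20.9 (-5.06 ± 0.59).

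In the mitochondrial lists more genes fell than rose. Of 38 respiratory chain genes 27 fell (71.1%) and 0 rose, with a median of -0.73, yet the falls were below 2-fold for most: Cox4i1 stood at 5612, 9531 and 10242 with LIF and 4223, 3974 and 5433 without (log2 fold change -0.91 ± 0.21, adjusted p = 0.0050) and Atp5b, of the ATP synthase, fell by 0.57 ± 0.13 on the log2 scale. These transcripts are short, with a median of 1072 bases, and with the length trend removed 9 fell, 0 rose and the median was -0.31. In that setting 2818 of all 14177 genes with a length fell, and their median was -0.04. In Nanog/Otx2 SunTag cells, described below, the median of the same genes was -0.34. Of 21 fatty acid oxidation genes 12 fell and 2 rose, and 11 and 2 with the length trend removed. Cpt1a, the gate of fatty acids into mitochondria, stood at 1333, 1458 and 1219.7 with LIF and 195, 191 and 150.0 without (log2 fold change -2.92 ± 0.21, adjusted p = 2.7e-06), and Slc25a20, Acaa2, Etfb and Decr1 fell by between 1.61 and 1.72 on the log2 scale, whereas Acadl rose (1.42 ± 0.15).

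Of 25 glycolysis genes 7 fell (4 without C1-2 without LIF) and 4 rose. With the clone as a block 7 rose, and 1 rose without C2-2 with LIF or C1-1 without LIF and 2 without C2-1 without LIF. Pfkp, the platelet phosphofructokinase gene, stood at 13857, 15668 and 11495 with LIF and 3349.7, 3123 and 2363 without (log2 fold change -2.23 ± 0.20, adjusted p = 1.0e-05), and the hexokinase genes Hk1 and Hk2 fell (-2.07 and -0.63). Ldhb, a lactate dehydrogenase subunit, fell (-1.42 ± 0.36), and the lactate exporter gene Slc16a3 rose (1.72 ± 0.27). Among 23 cholesterol synthesis genes 10 rose and 1 fell (6 and 1 with the length trend removed), with a step below 2-fold for Sqle, the squalene epoxidase gene (0.86). Of 19 threonine, serine and glycine genes 4 fell and 2 rose, with Tdh changing most, but 2 of 18 fell and 1 rose with the length trend removed, and 4 fell and 4 rose without C1-1 with LIF. Glutathione and redox genes split into 8 of 24 that fell, led by Gpx4 (-1.91 ± 0.26), and 6 that rose, among them Gclc and G6pdx (1.40 and 1.14). With the length trend removed 5 fell and 7 rose.

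The proliferation lists were not alike in the share called. Mitosis genes fell at 11.5% and rose at 0%, below the 21.3% and 20.2% of all genes tested. DNA replication genes fell at 22.6% and rose at 3.23%, and Myc and G1 genes moved at 21.7% each way. Of 26 mitosis genes 3 fell and 0 rose (3 and 4 without C1-1 with LIF, and 5 and 1 with the clone as a block), and of 31 DNA replication genes 7 fell and 1 rose (10 and 3 without it), with medians of -0.04 and -0.13. In the latter 4 fell with the length trend removed, without C2-2 with LIF or without any 1 of the libraries without LIF. Of 23 Myc and G1 genes 5 rose (8 with the clone as a block, and 3 without C2-1 or C2-2 with LIF) and 5 fell: the cyclin genes Ccnd1 and Ccnd2 and Mycl1, a Myc family gene, rose (0.65, 1.31 and 1.95), Ccnd3 fell (-2.07 ± 0.28), and Cdkn1a, the p21 inhibitor, stood at 929, 1408 and 1755 with LIF and 573, 551 and 626 without (log2 fold change -1.24 ± 0.21, adjusted p = 9.0e-04). Of 25 ribosome biogenesis genes 5 rose and 0 fell (9 and 1 without C1-1 with LIF, and 3 and 0 with the length trend removed), the 5 by under 1 on the log2 scale. Of 24 p53 targets and apoptosis genes 6 rose and 1 fell (7 and 4 without C1-1 with LIF), with Bcl2l11 (Bim) among the rises (1.21).

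Of 19 amino acid and ER stress genes 4 fell and 0 rose (6 and 2 without C1-1 with LIF), among the falls Asns (-1.69 ± 0.28) and Ddit3 (-2.19 ± 0.50). Of 19 hypoxia genes 5 fell and 1 rose, but 1 to 3 fell with any library other than C2-2 with LIF left out. Interferon genes were mixed, with 6 of 15 rising and 4 falling. Irf1, a transcription factor of the interferon response, stood at 455, 649 and 546 with LIF and 1692, 1733 and 2413 without (adjusted p = 4.5e-05), and the antigen presentation genes H2-K1 and Tap1 rose (1.26 and 1.89), while Oas1a and Ifitm2 fell (-2.09 and -1.27). Of 20 germline genes 9 fell (5 without C1-1 without LIF) and 1 rose. Hormad1, a meiotic chromosome axis gene, stood at 1516, 709 and 509 with LIF and 118, 162 and 159.8 without (log2 fold change -2.66 ± 0.37, adjusted p = 2.1e-04, and -2.05 without C1-1 with LIF), and Stk31 fell as well (-1.48 ± 0.33), whereas Ddx4 did not pass the test (0.11 ± 0.21) and Tdrd1 rose (2.00 ± 0.37). Of 10 genes of 2-cell-like cells tested, 2 fell, 5 with the clone as a block, and 0 without C1-1 with LIF or without C1-1 or C2-1 without LIF. Zscan4c stood at 1143, 396 and 129.8 with LIF and 109, 545 and 108 without and its groups overlapped, as did those of its near-identical neighbours Zscan4d and Zscan4f, between which reads can be split. With the clone as a block Zscan4d and Zscan4f were called lower (-1.91 and -2.02).

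Outside the lists, the largest rises among genes whose mean without LIF reached 100 normalised counts included genes of secreted and surface proteins. Enpp2 (autotaxin), which makes lysophosphatidic acid, stood at 91.0, 21.8 and 22.5 normalised counts with LIF and 6074, 4314 and 5326 without (log2 fold change 6.99 ± 0.56, adjusted p = 5.3e-06). Cxcl12, a chemokine, stood at 64.3, 11.7 and 9.99 with LIF and 2434, 2311 and 2505 without (log2 fold change 6.60 ± 0.51, adjusted p = 4.5e-06). Both were at most 91.0 normalised counts with LIF and at least 2311 in every library without it, and without C1-1 with LIF the rises were 7.89 and 7.81. St6gal2, a sialyltransferase, Spon1, a secreted matrix protein, Zfp608, a zinc finger protein, and Ror1, a Wnt5a receptor, rose by 7.58, 6.92, 6.33 and 6.28 on the log2 scale. These values rest on few counts with LIF, and leaving out 1 such library moved that of St6gal2 to between 6.98 and 9.49 and that of Spon1 to between 6.34 and 7.57. Gm10053, Gm5380 and Rpl30-ps9 met the same rule, but they are processed copies or pseudogenes whose reads can be split with their parent genes.

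The largest falls were led by Gm7325, since named Myomixer, which encodes a fusion peptide of muscle: it stood at 1076, 1689.6 and 1365 normalised counts with LIF and 4.07, 3.88 and 12.3 without (log2 fold change -7.72 ± 0.49, adjusted p = 1.2e-06, and -8.39 without C2-1 without LIF). 2410004A20Rik followed (-7.41 ± 0.45). Mras, encoding a small GTPase of the Ras family (mm9 chr9:99285841-99337300, minus strand), stood at 1933, 3788 and 3393 with LIF and 14.7, 36.2 and 24.6 without (log2 fold change -6.97 ± 0.36, adjusted p = 6.4e-07). Mapt, the gene of the microtubule protein tau, stood at 1232, 1775 and 1576 with LIF and 10.6, 18.1 and 22.1 without (log2 fold change -6.54 ± 0.31, adjusted p = 3.3e-07). Gm7325, Mras and Mapt had at least 1076 normalised counts in each library with LIF and at most 36.2 in each without it. Gm216, Ly6g6e and Hal (histidine ammonia-lyase) fell by 6.63, 6.10 and 5.96 on the log2 scale.

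A further set was at the floor in 1 condition. 214 genes tested had at most 3 counts in every library with LIF, of which 170 were called higher, and 202 had at most 3 in every library without LIF, of which 152 were called lower. No fold is given for these. The genes of the first set with the highest levels were Fat3, an atypical cadherin, at 397, 304 and 247 normalised counts without LIF, Slc35d3, at 326, 257 and 146, Pcdh18, a protocadherin, at 268, 279 and 182, Shisa6, at 164, 213 and 231, and Aadat, at 136, 168 and 144. Among those of the second set, Gm1631 stood at 252, 282 and 247 with LIF, the protease inhibitor gene Serpinb1a at 158, 181 and 167 and Acsm4, a medium-chain acyl-CoA synthetase gene, at 91.0, 163 and 139.8.

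The share of called genes varied with transcript length. Among the shortest 20% of 14177 genes with a coding transcript (median 1226 bases) 7.43% rose and 33.8% fell, and among the longest 20% (median 6344 bases) 41.6% rose and 10.3% fell. The median log2 fold changes of the 5 length classes went from -0.46 over -0.19, -0.05 and 0.16 to 0.49. In Nanog/Otx2 SunTag cells, described below, they went from -0.16 over -0.06, -0.02 and 0.06 to 0.18. With the trend removed 2529 genes were called higher and 2818 lower. Of the 2995 genes with a length that rose, 2186 were still called higher, and of the 2946 that fell, 2269 were still called lower.

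**Figure D4:**
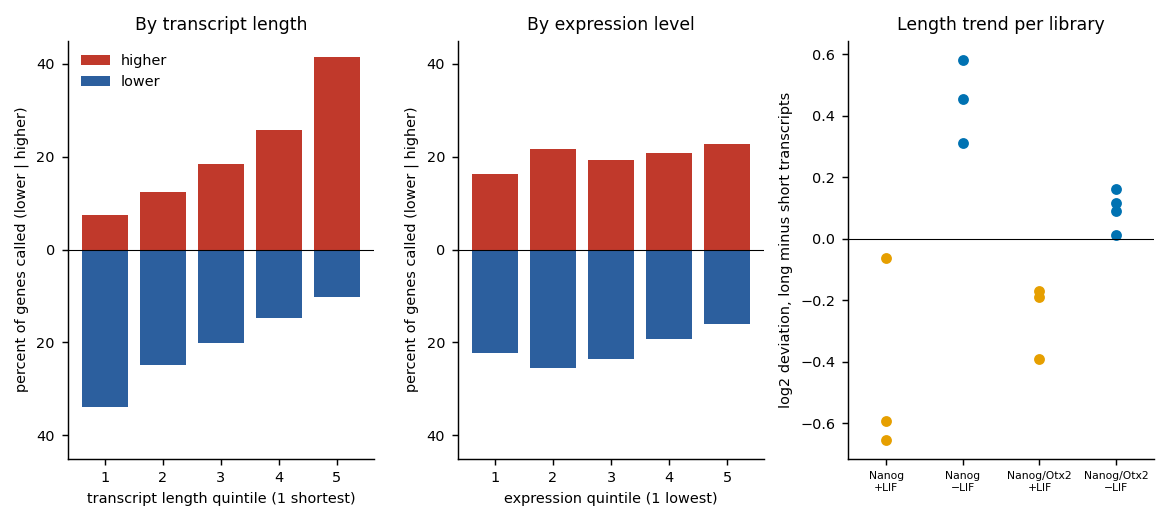
The left and middle panels give the percentage of genes called higher (upwards, red) and lower (downwards, blue) in 5 classes of transcript length and of expression, and the right panel gives for each library without Dox the log2 deviation of long transcripts minus that of short ones. The share called higher grows from 7.43% to 41.6% with length, and in both guide lines these libraries lie below 0 with LIF and above it without.

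Ribosomal protein genes, which have short transcripts (median 860 bases), fell in 29 of 80 cases and rose in none, with a median of -0.49. With the length trend removed 7 were called higher and 8 lower, without C1-1 with LIF 46 were called lower and 1 higher, and in Nanog/Otx2 SunTag cells their median was -0.09. Among families of long genes, 20 of 49 potassium channel (Kcn) genes rose and 6 fell, 10 of 18 semaphorins rose and 3 fell, and 6 of 7 protocadherins rose. Claudins rose in 5 of 10 cases and fell in none. Keratins fell in 7 of 13 cases and rose in 4, among the latter Krt8 and Krt18. Of 350 Zfp genes 78 rose and 34 fell, with a median of 0.20, and without C1-1 with LIF 132 rose and 35 fell, with a median of 0.39.

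By biotype, 2994 of 14174 protein-coding genes rose (21.1%) and 2946 fell (20.8%). Of 367 lincRNAs 61 rose and 108 fell, of 685 pseudogenes 52 rose and 157 fell, and of 284 processed transcripts 33 rose and 101 fell. None of these noncoding genes has a length here, so none entered the fit with the length trend removed. Their medians were -0.31, -0.53 and -0.63 here and -0.08, -0.10 and -0.33 in Nanog/Otx2 SunTag cells. By chromosome the medians lay between -0.16 for chromosome 1 and 0.09 for chromosome 3, apart from the Y and mitochondrial chromosomes with 5 and 16 genes. The X chromosome, of which these male cells carry a single copy, had 26.9% of 648 genes higher and 21.0% lower. By expression level, the share of genes that fell was 22.3% in the lowest of 5 classes and 16.1% in the highest, and the share that rose was 16.2% and 22.7%. In the highest class 710 genes rose, 1124 without C1-1 with LIF and 458 with the length trend removed.

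By fitted values, the genes called changed in the same direction in both clones. The fit took all 11 Nanog SunTag libraries, with and without Dox, and its Dox terms were common to both clones. The fitted values of the clones are therefore not separate measurements. Both had the direction of the call for 3151 of 3151 genes that rose and 3329 of 3330 that fell. The same libraries made the calls. Across the 15624 genes tested, Pearson's r between the log2 fold changes of C1 and C2 was 0.868. This is a description over genes, which are not independent, and C1 rests on a single library with LIF. The median absolute change of the called genes was 1.30 in C1 and 1.25 in C2. A test of the difference between the clones called 7 genes (0.0448% of 15624), 5 with the larger log2 fold change in C2 (0.0320%) and 2 with the smaller (0.0128%). In the same test 1854 genes had an unadjusted p under 0.05, where 781 would be expected if no gene differed. DESeq2 called 141, a fit without the filter 80 and a fit on the 6 libraries alone 824, and leaving out 1 library that could be spared gave 1 to 4 (1 without C1-1 or C1-2 without LIF, 2 without C2-1 and 4 without C2-2 with LIF). The level in LIF differed between the clones for 1289 genes in the same model. On simulated counts the clone difference test recovered 15% of 100 genes with a difference of 1 on the log2 scale and 97% of 100 with 3. The small number called therefore does not show that the clones responded alike.

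Among the 7 genes, Esrp1 stood at 782, 88.8 and 145 with LIF and 4365, 4739 and 3948 without. Its fitted rise was 2.55 in C1 and 4.96 in C2, a difference of 2.41 ± 0.25 (adjusted p = 0.014). The libraries without LIF lay together and the clones were apart with LIF, and with the GC trend removed the difference still passed (adjusted p = 0.010). Emb, encoding the cell surface glycoprotein embigin, and Fzd7, a Wnt receptor gene, rose more in C2, by 1.52 ± 0.18 and 1.50 ± 0.17. With the GC trend removed the difference of Emb no longer passed (adjusted p = 0.057) and that of Fzd7 did (adjusted p = 0.031). Fzd7 stood at 2453, 1827 and 1787 with LIF and 6018, 5724 and 11572 without, and the C2 library without LIF was above both C1 libraries.

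Nanog/Otx2 SunTag cells, with 7 libraries without Dox that are separate from those above, gave the same contrast. No source used here says whether both lines were prepared and sequenced together. In the deposited column names the lines have different prefixes, so a difference between the lines cannot be told apart from what goes with these prefixes. For this contrast, a fit that also took in the Nanog/Otx2 libraries with Dox called 7768 of 15609 genes (49.8%), 3834 higher (24.6%) and 3934 lower (25.2%). The 7 libraries without Dox alone gave 6643. Of the 3081 genes called higher here and tested there, 94.7% had the same direction and 76.0% were called higher, with 13 called lower. Of the 3209 called lower here, 95.5% had the same direction and 75.2% were called lower, with 1 called higher. In the other direction, of 3710 genes called higher in Nanog/Otx2 cells and tested here, 94.8% rose in C1 and 95.6% in C2 by the fitted value, and of 3841 called lower 92.8% fell in C1 and 92.4% in C2.

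**Figure D5:**
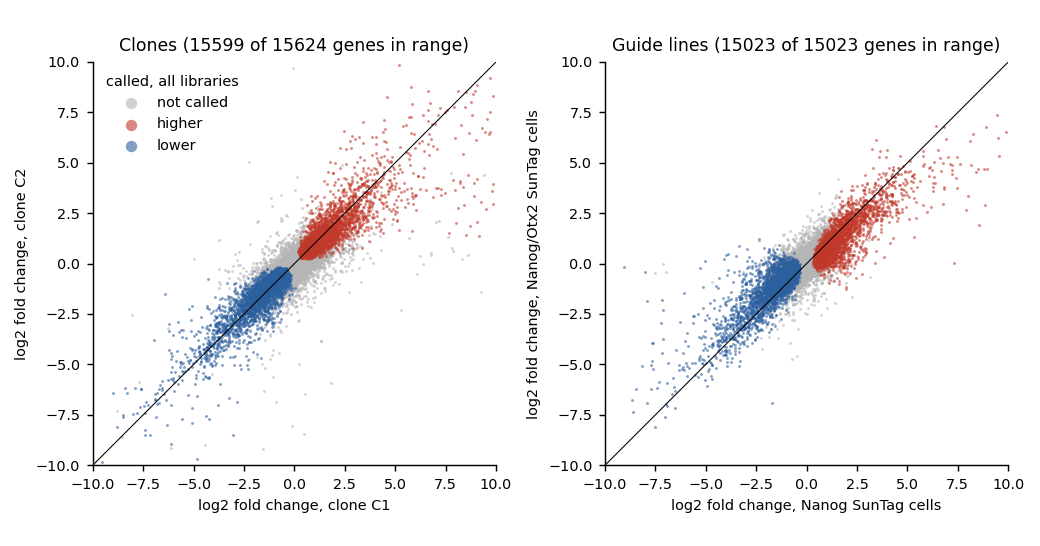
Left, fitted log2 fold changes (without LIF over with LIF) of clone C2 against clone C1. Right, the same of Nanog/Otx2 SunTag cells against Nanog SunTag cells. Each gene is 1 point, coloured by the call over all libraries, and the line marks equality. Called genes lie along the line in both panels, where Pearson's r over all genes was 0.868 and 0.869, and 25 genes of the left panel lie outside it.

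The named programmes had the same direction in both lines. The median of the naive factors was -3.98 in Nanog/Otx2 cells, where Dppa3 fell too (-2.18 against 0.07 here), that of the formative genes was 1.99 and that of the epithelial junction genes 1.05. Fgf5 changed by 7.38 there and 9.43 here, Socs3 by -5.59 and -5.93, and Pim2 by 4.59 and 4.89. Lists whose medians differed in sign were the primitive streak genes (1.58 here, -0.07 there), the retinoic acid genes (-0.63 and 0.16) and 5 others with medians within 0.2 of 0 in both lines. These differences between lists were not tested.

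A test of the difference between the lines called 403 of 16210 genes (2.49%), of which 113 had the larger (0.697%) and 290 the smaller (1.79%) log2 fold change in Nanog/Otx2 cells. Of the 403, 237 were called here with the same direction in both lines and 144 had opposite directions. With the parental clone as a block 864 genes were called. The number moved with single libraries: it was 2369 without C1-1 with LIF, 259 and 227 without C2-1 and C2-2 with LIF, and 251, 177 and 462 without C1-1, C1-2 and C2-1 without LIF. With the length trend removed it was 142. Pcdh18 stood at 0 to 2.68 normalised counts with LIF and 182 to 279 without here, and at 0 to 6.80 and 97.9 to 185 in Nanog/Otx2 cells, and its difference passed the test (adjusted p = 0.040). Ror1 rose less in Nanog/Otx2 cells (3.99 against 6.28, adjusted p of the difference = 0.0086). The largest difference in size, among genes whose highest group mean reached 100 normalised counts, was that of Gm10053, a predicted gene, which stood at 0 to 6.24 normalised counts with LIF here and at 1393 to 1879 with LIF in Nanog/Otx2 cells.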

How the data were processed

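RNA was taken after 3 days of culture, made into stranded poly(A) libraries and sequenced from 1 end, per the labels. The authors aligned reads to mm9 with STAR and made estimated counts per gene with RSEM, which were deposited and are used here rounded to whole numbers (CASAVA 1.8, STAR, RSEM and DESeq2 are named in the submitters' processing notes). A second deposited table holds a signal, the normalised counts, that the authors obtained by dividing the counts by a DESeq2 size factor over the 35 libraries. It is used to print levels, to choose the genes tested, to compare groups for overlap and to form the expression classes. The GC and length trends and the correlations within and between clones also come from it. The tests themselves use the estimated counts.

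Groups, clones, LIF and Dox come from the labels, and replicates were numbered within a clone. A gene was tested if its normalised count reached 10 in all libraries of some condition, with edgeR 4.0.16 in R 4.3.3 (TMM, quasi-likelihood, LIF, Dox and their interaction, 11 Nanog SunTag libraries, Benjamini-Hochberg adjusted p under 0.05). The clone difference added clone and its interaction with LIF, and the guide line difference was fitted on the Nanog and Nanog/Otx2 libraries together. On simulated counts with known changes, the LIF test recovered 35% of 100 genes changed by 1 on the log2 scale and 98% of 100 changed by 3, and called 10 unchanged genes of 15624. Only 200 genes were changed there, where 6481 were called in the data, so these shares need not hold for the data.

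GC content and length came from coding transcripts for 14177 of 15624 genes tested (90.7%), by GENCODE M1 models on mm9, and promoters from RefSeq on GRCm38.p6. Their trends were removed by lowess, an alternative chosen after seeing the data. The other alternatives were DESeq2 1.42.0, its size factors, no filter, filterByExpr, fewer libraries, a 2-fold threshold, the clone as a block and each library left out. C1 and C2 are cell lines, so the clone pairs the samples: deviations from the group mean had a mean correlation of 0.19 within and -0.15 between clones. The main fit has no clone term and so leaves this pairing out. Clone C1 has fewer uninduced libraries with LIF than without and C2 the reverse, so part of a clone difference can enter the LIF effect. No libraries were near duplicates.

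The comparison and the gene lists were chosen with earlier results of these data known. Named genes were, for each of 43 lists, marked members and the 3 largest called changes with a mean of at least 100, the 12 largest rises and falls, the 8 highest genes at no more than 3 counts in the other group, and the 4 largest differences between clones and guide lines each way. Other genes named beside them were chosen after their values were seen, and some genes that met the rule are not reported here. Depth ranged from 10937367 to 35412131 counts per library. RSEM splits reads between near-identical copies, so values of such genes are uncertain.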

Additional observations from a re-analysis of the deposited data

Results flagged for a closer look

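The response to LIF withdrawal differed between the clones, by the interaction test, for 7 genes, and each difference uses C1-1, the single C1 library with LIF. The difference of log2 fold changes, C2 minus C1, was -6.40 for Gm14303, -2.63 for Gm9770, 1.50 for Fzd7, 1.52 for Emb, 2.10 for Gm15610, 2.41 for Esrp1 and 9.81 for Gm2026. Gm14303 stood at 24.1 normalised counts in C1-1 with LIF and at 4760 to 11195 in the other 5 libraries. Gm2026 stood at 0 in both C2 libraries with LIF and at 71.3 to 112 in the other 4, so its fitted difference depends on the prior count. Gm15610 stood at 1109 in C1-1 with LIF and at 271 to 365 in the others. For these 3 and for Gm9770 the deviating values were all with LIF.

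Between the guide lines, the interaction test called 403 genes, and the largest differences among genes whose highest group mean reached 100 normalised counts, Nanog/Otx2 minus Nanog, were -7.30 for Gm10053, -3.91 for Pcdh18, -3.79 for Cysltr1, -3.37 for Gm5380, 4.33 for RP23-445D13.4, 4.43 for Ap3s1-ps1, 5.13 for Gm4459 and 5.20 for Gm5428. Gm4459 stood at 359 to 597 normalised counts with LIF and 0 to 40.6 without in Nanog SunTag cells, and at 685 to 930 and 505 to 905 in Nanog/Otx2 cells. Pcdh18 and Cysltr1 had at most 3 counts per Nanog SunTag library with LIF, so their fitted differences depend on the prior count. No source used here says whether both lines were prepared and sequenced together. Their column names have different prefixes, so these differences cannot be told apart from what goes with the prefixes.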

How the results depend on the processing

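The 6481 genes called after LIF withdrawal became 1984 with a test against a 2-fold change and 4894 to 7953 with 1 library left out. Under DESeq2, its size factors, no filter, filterByExpr, the 6 libraries alone, the clone as a replicate block (7239 genes), the GC trend removed (7160), the length trend removed (5347 of 14177), the block with GC (7935) and the block with length (6262), the count stayed within 1.5 times. Of the 3151 genes that rose, 3137 were also called higher by DESeq2, 3090 with the clone block and 3028 without C1-1 with LIF, and of the 3330 that fell, 3300, 3204 and 2992 were also called lower.

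The 7 clone differences became 141 by DESeq2, 80 with no filter, 824 with the 6 libraries alone and 1 to 4 with 1 library left out. The 403 guide line differences became 856 by DESeq2, 71 with the 13 libraries without Dox alone, 864 with the parental clone as a replicate block, 903 with GC removed, 142 with length removed and 177 to 2369 with 1 library left out. The cause of these changes was not tested, beyond the fewer libraries of some fits. With the length trend removed, respiratory chain genes called lower went from 27 to 9, extracellular matrix genes called higher from 13 to 5 and ribosomal protein (Rpl and Rps) genes called lower from 29 to 8, the last being 46 without C1-1 with LIF. Calls for LIF withdrawal in Nanog/Otx2 cells stayed within 1.5 times of 7768, with 6643 from the 7 libraries without Dox alone.

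Of 267 named genes, 257 kept their side of the threshold with the clone block, 263 under DESeq2 and 233 of 256 with the length trend removed. 3 changed sign with a call: Suz12 from -0.08 to 0.42 without C1-1 with LIF (between -0.28 and 0.42 with any 1 library left out), Notch1 from 0.02 to -0.76 with length removed, and Bax from -0.13 to 0.44 with the block and length removed. Genes with under 10 normalised counts in some library of each condition were not tested. In the simulation, which changed 200 genes, the test on 11 libraries found 35% of 2-fold changes, a share that need not hold for the data. Genes not called may still differ.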
